A study of Mus musculus with 12 samples.

Results

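The data describe regulatory T cells (Treg) sorted as IL10+ from MC38 tumours, set against Treg sorted from the spleen. The arrays were chosen by their titles, which name 3 replicates of IL10+ tumour Treg of VERT-X mice and 3 replicates of spleen Treg of FoxP3-EGFP mice, so that 6 of the 12 arrays of the series enter the comparison. The remaining arrays are 3 of IL10- tumour Treg of VERT-X mice and 3 of total tumour Treg of FoxP3-EGFP mice. They contribute to the estimate of the spread of each gene, and their values are given where they bear on a result. MC38 is a carcinoma line derived from the colon of a C57BL/6 mouse.

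The IL10+ cells came from VERT-X C57BL/6 mice, whose Il10 locus carries an EGFP reporter, in which MC38 had grown under the skin for 2 weeks. Tumours were pooled and digested before the sort. The spleen cells came from tumour-free FoxP3-EGFP C57BL/6 mice, in which EGFP marks cells that transcribe Foxp3. For every population the first gate took CD45+ cells low in CD11b that carried CD3 and CD4. FoxP3-EGFP cells were then taken by EGFP and VERT-X cells by CD25+ CD120b+/low, so that the organ, the tumour, the strain and the gate all differ between the groups and cannot be told apart. All mice carried a reporter allele, and no group came from mice without one. The labels name 3 experiments for each population without saying how many mice entered each. P-values therefore measure the spread between these sorts.

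Treg are CD4 T cells that restrain other immune cells and depend on the transcription factor Foxp3. A resting form circulates through lymphoid organs and carries receptors for lymph node entry and exit. An effector form, found in inflamed tissue and in tumours, carries receptors of the TNF receptor family, makes the suppressive cytokine interleukin-10 (encoded by Il10) and keeps fewer features of naive T cells.

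Each array carried 41174 probes after spots of 1 probe were averaged. Between 42.16% and 54.25% of the probes lay well above background on the IL10+ arrays and between 46.05% and 50% on the spleen arrays. IL10+ replicate 3 was the dimmest array, with a 75th percentile of the processed signal of 98.02, against 305.3 and 642.3 on the other IL10+ arrays and 317.3 to 397.3 on the spleen arrays. Pairs of IL10+ arrays correlated at Pearson r of 0.927 to 0.958 across features and pairs of spleen arrays at 0.964 to 0.982. Spleen replicate 2 stood apart, since the median member of the Treg identity list lay 2.00 below the spleen mean on that array and 0.93 and 1.08 above it on the others. IL10+ replicate 1 also stood apart, with the median member of the T cell receptor list 1.45 below the spleen mean, against 0.61 and 0.40 below it on the other IL10+ arrays. No slide held both groups, and the slide adjustment reported here therefore ran through the total tumour arrays. Of these, replicates 1 and 2 shared a slide with IL10+ replicate 1, and replicate 3 shared the slide of the spleen arrays. IL10+ replicates 2 and 3 shared no slide with total tumour or spleen arrays and did not enter the slide-adjusted difference. That difference rests on IL10+ replicate 1 alone, so it is no check on the IL10+ replicates together. The slide fit also leaves few degrees of freedom, so a call lost in it need not mean a smaller difference.

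Levels are log2 of the processed signal after subtraction of the array's own 75th percentile, so that 0 marks that percentile. Il10 itself (probe at chr1:132851912-132851971, mm8) stood at 3.63, 5.38 and 4.79 on the IL10+ arrays and at 0.79, -3.66 and 0.65 on the spleen arrays. The groups did not overlap, and the spread in the spleen came from replicate 2. The sort chose IL10+ cells by the Il10 reporter, so a high level of this gene was selected for. Il10 rose by 5.34 ± 1.01 (log2 difference ± standard error, n = 3 and 3, adjusted p = 0.00165). The slide adjustment gave a difference of 4.12 and ended the call (adjusted p = 0.261). Against the same spleen arrays the Il10 difference was 0.71 in IL10- tumour Treg and 5.94 in total tumour Treg. Il10 was not called between IL10+ and IL10- tumour Treg, the groups that share strain and gate. Their differences from spleen were nonetheless far apart, at 5.34 and 0.71, so the missing call does not mean like levels.

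Foxp3, the factor that defines Treg, was read by a probe at chrX:6751991-6752050 (mm8). Its levels were 2.56, 4.39 and 4.03 in IL10+ Treg and -6.14, -5.83 and -6.37 in spleen Treg. The probe was not well above background on any array of FoxP3-EGFP mice, from spleen or tumour, so the difference of 9.77 ± 0.51 (adjusted p = 1.1e-06) is a bound of at least 216-fold. Differences given as "at least" compare the mean of the bright group with, on each dim array, the higher of the probe's own signal and the dimmest signal of any probe well above background. The difference from spleen was 10.09 in IL10- Treg of VERT-X mice and -0.35 in total tumour Treg of FoxP3-EGFP mice, so the probe was low in every group of FoxP3-EGFP mice and gives no measure of Foxp3 in the spleen cells.

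The genes of the gate gave a mixed picture. Il2ra, which encodes CD25, stood at 0.32, 1.88 and 1.16 in IL10+ Treg and at 0.67, -3.95 and 1.23 in the spleen. These groups overlapped, and the difference of 1.80 did not pass the test (adjusted p = 0.202). Tnfrsf1b, which encodes the TNF receptor CD120b, rose by 2.09 ± 0.50 (adjusted p = 0.00605). Cd4 differed by 0.78 (adjusted p = 0.445), and without IL10+ replicate 1 the difference was 1.73 with an adjusted p of 0.0486. Cd3e, a chain of the CD3 complex, spanned 1.65 to 5.78 in IL10+ Treg against 3.12 to 3.37 in the spleen, and its difference of 0.82 did not pass (adjusted p = 0.553), while a second Cd3e probe fell by 1.63 (adjusted p = 0.0107). Ptprc, which encodes CD45, fell by 0.97 ± 0.26 (adjusted p = 0.0116). Itgam, which encodes CD11b of myeloid cells, rose by 3.03 ± 0.37 (adjusted p = 1.2e-04), from levels of -4.91 to -3.50 in the spleen to -1.12 to -0.83. Tnfrsf1b, Ptprc and Itgam lost their calls with slide in the fit.

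**Figure D1:**
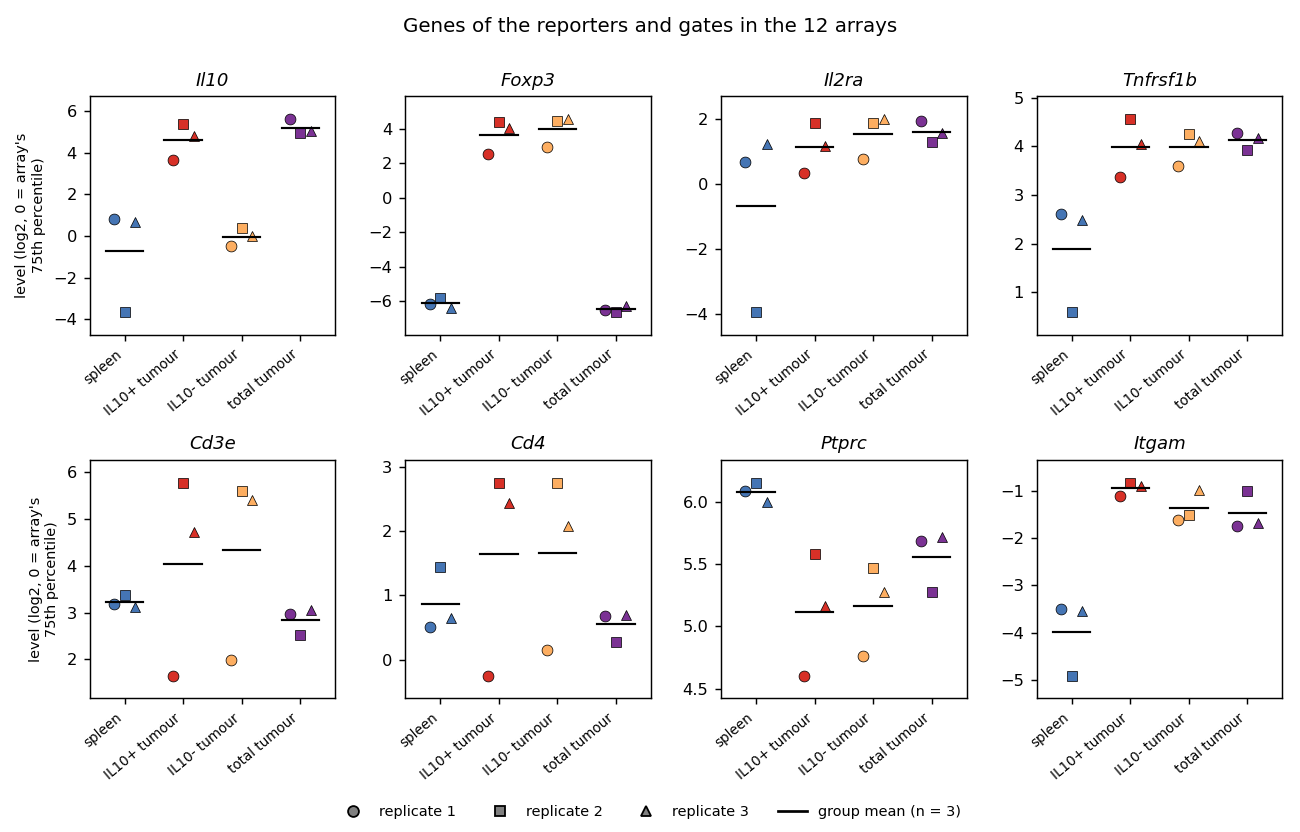
Levels (log2, 0 = 75th percentile of the array) of the 8 genes behind the reporters and gates on every array of the 4 groups, with symbols for the replicates and a line at the mean of 3. Il10 was high in IL10+ and total tumour Treg, Foxp3 was read only in the VERT-X groups, and spleen replicate 2 lay low for Il10 and Il2ra.

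Across the array 15534 features were tested, of which 13633 carried a gene name. Of these, 8011 (51.6%) were called at an adjusted p under 0.05, 3616 higher in IL10+ tumour Treg (23.3%) and 4395 lower (28.3%). At least a 2-fold difference was reached by 2766 of the higher (17.8% of all tested) and 2579 of the lower features (16.6%). The groups did not overlap for 58.1% of the features, 25.9% with IL10+ higher and 32.2% with spleen higher. An unadjusted p under 0.05 was reached by 57.5%. The median difference over all features was -0.10. A list of genes is read below against these shares, since a called share near them says little about the list. List counts with slide in the fit or with normexp belong beside the smaller number of calls over all features in those fits. With slide as a fixed block 1202 features were higher and 1304 lower, and 2434 of the 8011 calls (30.4%) kept their direction and threshold.

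**Figure D2:**
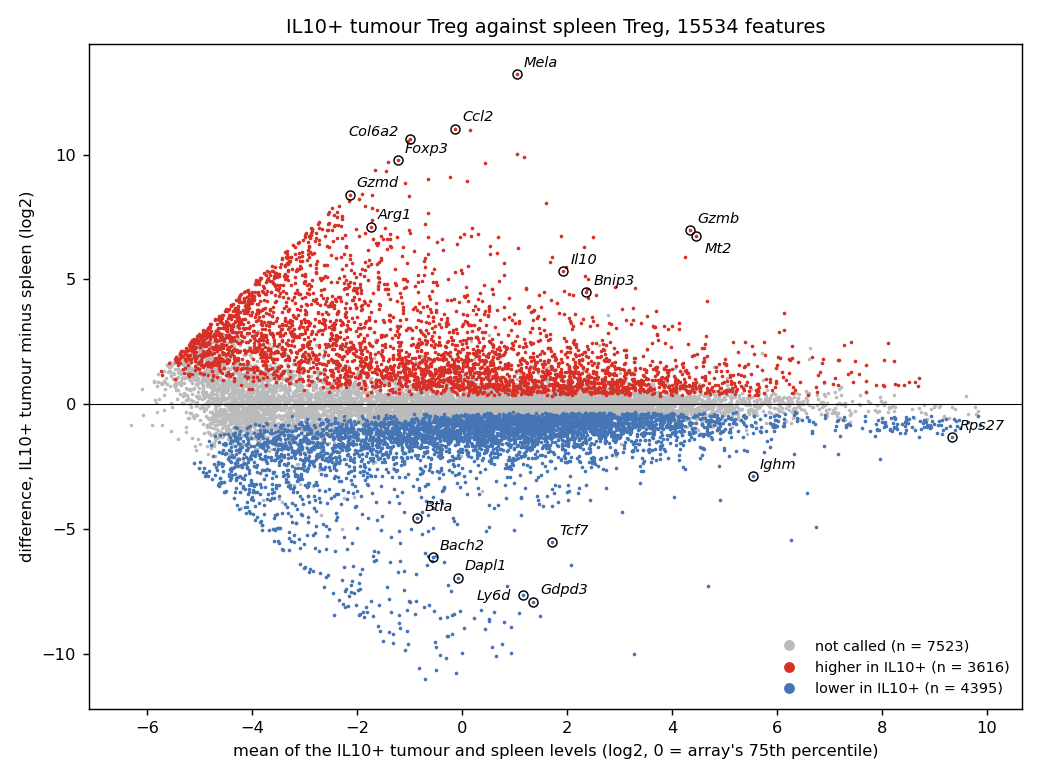
Difference between IL10+ tumour and spleen Treg (log2) against the mean level of the 2 groups (log2, 0 = 75th percentile of the array), 1 point per feature, coloured by call. The called features reached from -11 to 13 at low and middle levels, and the ribosomal gene Rps27 marks the brightest end of the fall.

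Apart from Foxp3 and the cell type markers, many of the large rises belonged to genes of chemotaxis and of the extracellular matrix. Ccl2, a chemokine that attracts monocytes (probe at chr11:81853343-81853402, mm8), stood at 6.21, 4.56 and 5.37 in IL10+ Treg and between -5.83 and -5.55 in the spleen, a difference of 11.04 ± 0.51 and a bound of at least 714-fold (adjusted p = 6e-07). The related chemokines Ccl7 and Ccl12 rose by at least 321-fold and at least 84.2-fold. Collagen chains followed, with Col6a2 at least 339-fold, Col6a3 at least 173-fold and Col5a3 at least 159-fold higher. Il34, a ligand of the macrophage growth factor receptor, rose at least 140-fold.

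Of the other large rises, Htra1, a secreted protease, rose by 9.67, Ccn1, a matrix-associated protein, by 9.09, and Fkbp10, a chaperone of collagen, by 8.93 on the log2 scale. Spp1, which encodes osteopontin, stood at 4.20, 3.51 and 3.84 against -6.05, -3.34 and -6.08. Each was well above background on at least 1 spleen array. None of these genes is a defining gene of T cells. The differences in IL10- and total tumour Treg against the same spleen arrays were 10.66 and 9.98 for Ccl2.

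Immunoglobulin segments were among the largest falls, and a large fall outside them was that of Gdpd3, a phosphodiesterase gene (probe at chr7:126562154-126562327, mm8). It stood at -2.63, -2.56 and -2.63 in IL10+ Treg and at 4.98, 5.95 and 4.95 in the spleen. It fell by 7.90 ± 0.33 (adjusted p = 3.4e-07). Its probe was well above background on 2 of the 3 IL10+ arrays. The difference was -8.49 in IL10- Treg and -0.48 in total tumour Treg. Gdpd3 was thus low in both VERT-X groups, which came from tumours, and high in FoxP3-EGFP cells of tumour and spleen.

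Other large falls included genes of B cells, erythroid cells and resting T cells. Ly6d, a surface protein of lymphoid progenitors and B cells, fell by 7.63. Eraf, which stabilises haemoglobin chains, fell by 7.82. Eraf is an older symbol of the erythroid marker Ahsp, so it was not left out with the cell type markers. Nsg2, a neuronal vesicle protein that T cells also transcribe, fell by 7.26. Dapl1 fell by 6.94 and Dtx1, a regulator of Notch signalling, by 6.45. Bach2, a repressor that keeps T cells in a resting state (probe at chr4:32909704-32909763, mm8), stood at -4.60, -3.11 and -3.15 against 2.06, 2.77 and 2.67 and fell by 6.12 ± 0.51 (adjusted p = 1.2e-05).

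The sialyltransferases St8sia1 and St8sia6 were at least 62.2-fold and at least 46.0-fold lower, Apol7c was at least 26.3-fold lower and Car1, a carbonic anhydrase of erythroid cells, at least 17.9-fold lower. Clps, which encodes pancreatic colipase, stood at -0.77, -4.60 and 6.15 on the spleen arrays. Its fall of 6.52 (adjusted p = 0.0239) rested on spleen replicate 3 and did not hold without IL10+ replicate 1 or 2. The differences with slide in the fit were -7.88 for Ly6d, -7.29 for Dapl1, -4.79 for Apol7c and -7.25 for Clps, and their calls were lost.

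Markers of other cell types moved with the comparison, and they are given first because they bear on the groups that follow. In these bulk arrays, fewer cells of a type and less RNA per cell cannot be told apart. Of 20 macrophage and monocyte genes, 17 rose and 1 fell, with a median difference of 2.56. Their summed level (log2) was 9.04 to 9.79 on the IL10+ arrays and 5.58 to 6.86 on the spleen arrays. Lyz2, which encodes lysozyme, stood at 6.89, 6.41 and 6.84 against 3.71, 3.24 and 0.84 and rose by 4.12 ± 0.62 (adjusted p = 4.1e-04). Apoe, a lipid carrier, rose by 3.64 and the complement gene C1qb by 2.72.

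Of 16 fibroblast genes, 11 rose and 1 fell, with a median of 5.64, and 4 were not well above background on any spleen array. The summed level was 8.77 to 9.34 against 8.14 to 8.63, and the median member lay at 1.15 to 3.56 against -5.38 to -2.47. Sparc, a matrix protein, rose by 6.30 ± 0.82 (adjusted p = 1.8e-04). Acta2, smooth muscle actin, fell by 0.51 (adjusted p = 0.0252), and Thy1, which T cells also carry, differed by -0.40 (adjusted p = 0.206). Of the 6 tested epithelial tumour cell genes, 3 rose and 1 fell. Mela, a melanoma antigen gene of retroviral origin (probe at chr8:126312130-126312189, mm8), stood at 8.11, 7.16 and 7.66 in IL10+ Treg and between -6.12 and -5.09 in the spleen, at least 3427-fold higher (adjusted p = 3.2e-08). Krt18, a keratin, rose by 2.09 (adjusted p = 0.0383) and Epcam differed by 0.32 (adjusted p = 0.675).

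The spleen arrays held more transcript of B cells, plasma cells and erythroid cells. All 15 tested B cell genes fell, with a median of -5.38, and 8 of them were not well above background on any IL10+ array. Their summed level was 3.86 to 4.92 in IL10+ Treg and 7.38 to 8.39 in the spleen. Cd79b, a chain of the B cell receptor complex, stood at 0.36, 1.12 and 1.17 against 5.78, 4.95 and 4.89 and fell by 4.33 ± 0.31 (adjusted p = 5.9e-06). Ighm, the immunoglobulin M heavy chain, fell by 2.86 and Blnk, a B cell adaptor, by 1.71.

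Of 10 plasma cell genes 2 rose and 6 fell, and of the shared factors Prdm1 rose by 1.69 (adjusted p = 0.0102), while Xbp1 and Irf4 differed by 0.38 and -0.49 (adjusted p = 0.0695 and 0.523). Of 11 erythroid and platelet genes 1 rose and 7 fell. Hba-a1, a haemoglobin chain, fell by 5.44 and Car2, a carbonic anhydrase, by 3.49. The platelet chemokine Pf4 rose by 3.47 (adjusted p = 0.0406), but spleen replicate 2 stood at 3.50, above all IL10+ arrays.

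The remaining lists moved less far. Of 12 dendritic cell genes 2 rose and 3 fell (41.7% called). The antigen presentation genes Cd74, H2-Ab1 and H2-Aa differed by -0.45, -0.65 and -0.75, none past the test (adjusted p = 0.498, 0.258 and 0.219). Of 8 tested neutrophil genes 4 rose (50% called, against 51.6% of all features), among them Mmp9 by 3.61, Il1b by 3.32 and Ltf by at least 19.9-fold. Their summed level was 3.59 to 3.89 against -0.01 to 1.76. Of 12 CD8 T cell and NK cell genes 4 rose and 2 fell (50% called, against 51.6% of all features). Nkg7, a granule protein, rose by 2.48 and the chemokine Ccl5 by 1.25, while Cd8b1, a chain of CD8, fell by 1.32. Of 11 endothelial genes 2 rose and 1 fell (27.3% called). Pecam1, an endothelial adhesion protein that leukocytes share, fell by 1.77, Eng rose by 2.22 and Plvap differed by 1.70 (adjusted p = 0.115).

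After the slide adjustment, 5 macrophage genes rose and 1 fell, 11 fibroblast genes rose, 14 B cell genes fell and 1 erythroid gene fell. Under that adjustment Lyz2, Apoe, C1qb, Il1b, Acta2, Eng, Prdm1, Hba-a1, Car2, Pf4, Krt18, Nkg7 and Ccl5 lost their calls. With background corrected by the normexp method, 11 macrophage genes rose, 12 fibroblast genes rose and 2 fell, and 10 B cell genes fell. The erythroid and platelet list had 4 falls and a median of 0.07 with normexp, against -3.20 in the fit reported here. The part of these cell types in the programme lists below was not tested.

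**Figure D3:**
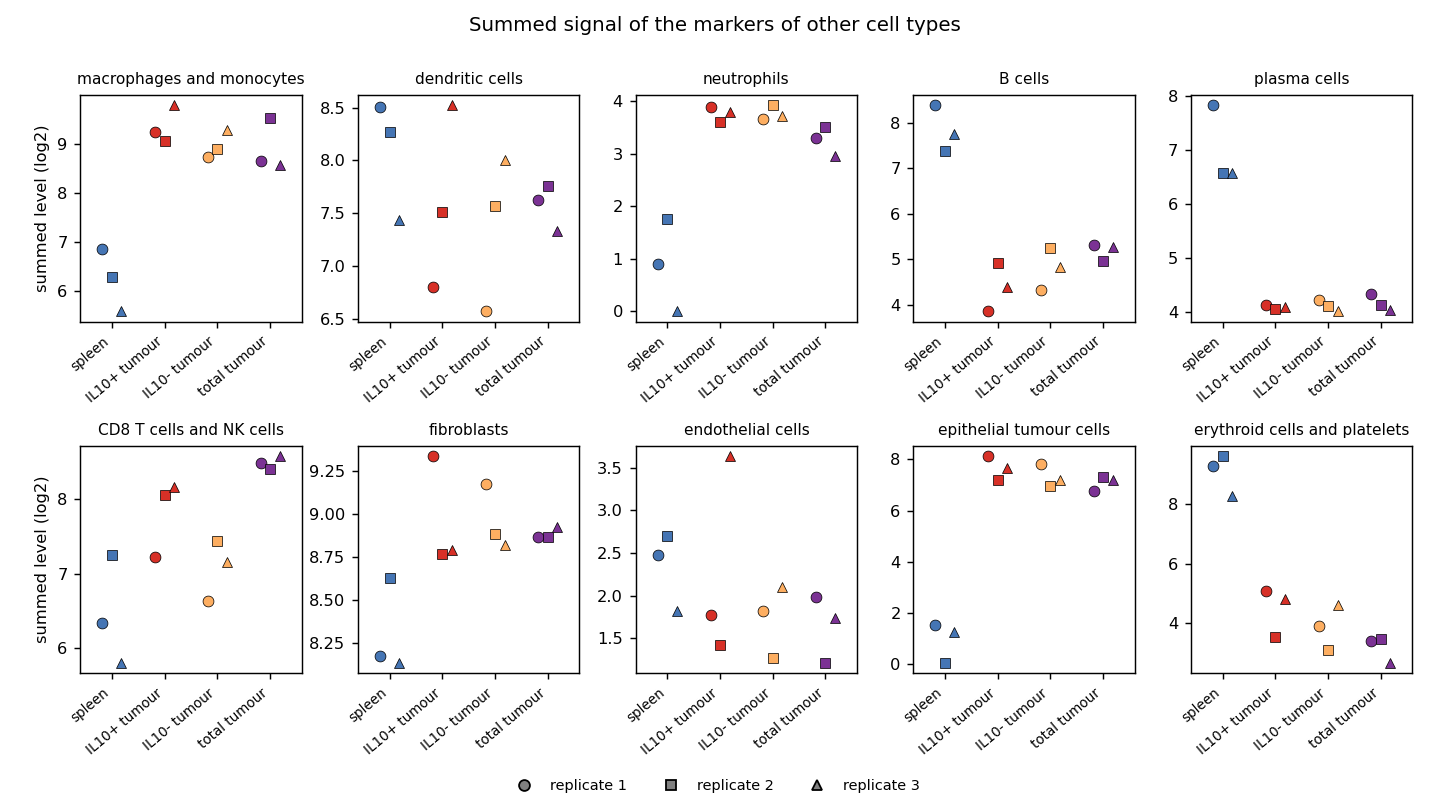
Summed level of each list of cell type markers on the 12 arrays, in log2 with 0 at the array's 75th percentile, by group and replicate. Summed macrophage, neutrophil and tumour cell markers were higher on every IL10+ array than on any spleen array. The reverse held for B cell, plasma cell and erythroid markers. On the IL10+ arrays the tumour cell sum came almost wholly from Mela.

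Treg identity genes rose in part. Of 18 tested members 7 rose and 1 fell (44.4% called, against 51.6% of all features), with a median of 1.67. The rises include Foxp3, whose probe gives no measure in the spleen cells. Entpd1, which encodes the ATP-degrading enzyme CD39, stood at 2.42, 3.82 and 3.51 in IL10+ Treg and at 1.39, -0.65 and 1.08 in the spleen, and rose by 2.64 ± 0.56 (adjusted p = 0.00297). Gpr83, a receptor that marks resting Treg, fell by 5.03 ± 0.85 (adjusted p = 8.3e-04) although spleen replicate 2 was low for it as well, at 1.18 against 4.39 and 4.96. Without spleen replicate 2 the list had 7 higher and 4 lower members with a median of 0.54, without IL10+ replicate 2 it had 3 higher, with slide in the fit 1 higher, and with normexp 1 higher and 1 lower. Entpd1 and Gpr83 lost their calls with slide in the fit.

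Transcription factors of effector Treg were mostly higher. Of 18 members 13 rose and 1 fell, with a median of 1.76. Zeb2, a transcriptional repressor active in terminal effector cells, stood at 1.15, 0.58 and 0.68 against -1.83, -1.96 and -2.79. It rose by 2.99 ± 0.32 (adjusted p = 5.2e-05). Runx2 rose by 2.67, and Bhlhe40, which controls cytokine production, rose by 3.04 on the 2 IL10+ arrays that measured it. Batf, a partner of AP-1 factors in effector cells, ran the other way at -0.69 (adjusted p = 0.0337), with overlapping groups, and lost that call without IL10+ replicate 1 or 3 and without spleen replicate 1 or 3. Adjusted for slide 3 of the 18 rose and the calls of Runx2 and Batf were lost, and with normexp 5 rose and 2 fell.

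Surface proteins of effector Treg gave 15 rises and 1 fall among 24 members, with a median of 2.42. The rises include Tnfrsf1b, whose protein was part of the gate of the VERT-X cells. The integrin chain gene Itgav stood at 2.17, 2.54 and 1.77 in IL10+ Treg against 0.04, -0.79 and 0.05 in the spleen and rose by 2.39 ± 0.26 (adjusted p = 5.9e-05). Tnfrsf10b, a death receptor, rose by 3.35 ± 0.30 (adjusted p = 1.9e-05). The one fall was that of Il18r1, which encodes part of the receptor for interleukin-18, at 0.23, 0.92 and 0.41 against 2.10, 2.33 and 2.18, a difference of -1.68 ± 0.20 (adjusted p = 1.2e-04). Itgav, Tnfrsf10b and Il18r1 kept their calls with slide in the fit, whereas the list had 5 higher and 1 lower there and 7 higher and 2 lower with normexp.

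Suppressive mediators gave 11 rises and no fall among 19 members (57.9% called, against 51.6% of all features), with a median of 2.18. The rises include Il10, whose reporter chose the IL10+ cells. Arg1, the arginine-degrading enzyme that macrophages also make, stood at 2.06, 0.93 and 2.45 and was not well above background on any spleen array, a rise of at least 60.4-fold (adjusted p = 2.8e-06). Lgals3, galectin-3, rose by 3.03 ± 0.32 (adjusted p = 4.8e-05). Gzmb, which encodes the cytolytic protease granzyme B (probe at chr14:55213150-55213209, mm8), stood at 7.39, 8.29 and 7.81 in IL10+ Treg and at 2.03, -1.36 and 1.88 in the spleen. It rose by 6.98 ± 0.76 (adjusted p = 5.9e-05), and with slide in the fit the difference was 6.67 (adjusted p = 0.0515). Its difference from spleen was 6.07 in IL10- Treg and 7.05 in total tumour Treg. Of these mediators 3 rose and 1 fell with slide in the fit.

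Granzymes beyond Gzmb were also higher. Of 16 tested genes of cytolysis 12 rose and none fell, with a median of 1.67, and 4 were not well above background on any spleen array. Gzmd stood at 2.05, 2.49 and 1.61 and rose at least 71-fold (adjusted p = 3.2e-07), and Gzmc rose by 4.46 ± 0.42 (adjusted p = 2.4e-05). Granzymes C to G are close copies, so their probes may share signal. The summed level of CD8 T cell and NK cell markers was 7.22 to 8.16 on the IL10+ arrays and 5.80 to 7.25 on the spleen arrays, and its part in the granzyme rise was not tested. Both lists hold Gzma and Nkg7. After adjustment for slide 3 of the 16 rose.

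Inhibitory receptors split, with 6 of 15 higher and 4 lower. Havcr2, which encodes TIM-3, rose by 2.96 ± 0.20 (adjusted p = 4e-06), from -1.88 to -1.48 in the spleen to 1.15 to 1.44. Btla, a receptor that T cells and B cells use to damp activation (probe at chr16:45171337-45171396, mm8), stood at -3.40, -2.99 and -3.01 against 1.29, 1.58 and 1.36. Btla fell by 4.54 ± 0.16 (adjusted p = 1.4e-07), and its probe was well above background on 2 of the 3 IL10+ arrays. Cd96, a receptor shared with NK cells, fell by 3.71 ± 0.32 (adjusted p = 1.5e-05). The slide adjustment moved the median of the list, which was then -0.03 against 0.65 without.

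Of 15 co-stimulatory receptors 3 were higher and 4 lower, with a median of -0.27, and the share called (46.7%) was near the 51.6% of all features. Tnfrsf9, which encodes 4-1BB, rose by 3.75 ± 0.73 (adjusted p = 0.00201), and Icos, a receptor of the CD28 family, rose by 2.50 ± 0.40 (adjusted p = 5.5e-04), with spleen replicate 2 the lowest array for both. Tnfrsf25, which encodes the death receptor DR3 (probe at chr4:150963847-150963906, mm8), stood at 0.33, 0.82 and 0.40 against 4.36, 4.25 and 4.43 and fell by 3.83 ± 0.21 (adjusted p = 1.3e-06). Slamf6 and Cd226, both adhesion receptors of T cell contacts, fell by 3.22 and 2.92. With slide in the fit the 3 rises, Tnfrsf9 and Icos among them, lost their calls and 3 falls held. With normexp none rose and 8 fell, and without IL10+ replicate 1 the median was 0.01.

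Genes of resting lymphoid T cells fell almost as a block. Of 26 members 22 fell and 1 rose, with a median of -2.25 against -0.10 over all features. Tcf7, which encodes the stem-like T cell factor TCF-1 (probe at chr11:52096035-52096094, mm8), stood at -0.83, -1.59 and -0.72 in IL10+ Treg against 3.96, 5.57 and 3.92 in the spleen and fell by 5.53 ± 0.40 (adjusted p = 6e-06). Cxcr5, the receptor for B cell follicles, fell by 4.92 ± 0.35 (adjusted p = 5.2e-06) and Bcl2, which protects resting lymphocytes from death, by 3.59 ± 0.30 (adjusted p = 1.3e-05). S1pr1, the receptor for exit from lymphoid organs, fell by 3.66.

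Ly6c1 rose by 0.95, a call lost with slide in the fit, but it shares sequence with other Ly6 genes and a second probe fell by 1.60. The list had 15 falls and no rise with slide in the fit and 22 falls with normexp. B cells also transcribe Bach2, Cxcr5 and Bcl2, and B cell markers were lower on every IL10+ array. Their part in these falls was not tested.

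Chemokine and homing receptors held 6 rises and 11 falls among 26 members. Cx3cr1, the fractalkine receptor, rose by 4.63 ± 0.61 (adjusted p = 1.8e-04) and was among the rises, while Cxcr5 and S1pr1 stood among the falls. Cx3cr1 lost its call with slide in the fit, where 2 members rose and 7 fell.

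T cell receptor signalling genes were lower or did not pass the test. Of 22 members 10 fell and none rose (45.5% called, against 51.6% of all features), with a median of -0.82. Trat1, an adaptor that stabilises the receptor, stood at -0.59, -0.10 and -0.78 against 2.54, 3.31 and 2.76 and fell by 3.36 ± 0.27 (adjusted p = 9.3e-06). The kinase gene Prkcq fell by 3.56 ± 0.42 (adjusted p = 9.7e-05) and Rasgrp1, which activates Ras, by 2.16. With slide in the fit 3 fell, these named genes among them. Without IL10+ replicate 2 the list had 15 falls, and with normexp 17.

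The GIMAP genes, GTPases of lymphocyte survival, gave 2 falls and 1 rise among 7 (42.9% called, against 51.6% of all features). Gimap9 differed by -1.20, Gimap1 by -1.12 and Gimap5 by 0.52 (adjusted p = 0.0494), with another Gimap5 probe 1.72 lower. None passed with slide in the fit. IL10+ replicate 1 was the lowest of its group for both of these lists.

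Cell division genes rose together. Of 25 genes of mitosis 24 rose and none fell, with a median of 1.59. Top2a, the DNA-untangling enzyme of dividing cells, stood at 2.67, 2.40 and 2.15 in IL10+ Treg against 0.29, -0.78 and 0.39 in the spleen and rose by 2.44 ± 0.29 (adjusted p = 9.7e-05). The spindle factor Tpx2 rose by 2.58 and cyclin A2 (Ccna2) by 2.10. Of 28 genes of DNA replication 23 rose and none fell, with a median of 1.26. E2f1, a transcription factor of the S phase, stood at 1.46, 1.31 and 1.55 against -0.81, -0.86 and -0.95 and rose by 2.31 ± 0.13 (adjusted p = 1.3e-06). Cyclin E2 (Ccne2) rose by 2.21.

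With slide in the fit 3 mitosis genes and 12 replication genes rose, and Ccna2 lost its call. With normexp (offset 50) the counts were 4 and 5, so the number of calls depended on this setting. None of the listed genes fell under it. Over all alternatives the lowest difference among Top2a, Tpx2, Ccna2, E2f1 and Ccne2 was 0.90. The cells that carried these transcripts were not identified, since fibroblast genes and 3 of 6 tumour cell genes rose on the same arrays.

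Glycolysis and hypoxia genes gave 21 rises and 1 fall among 25 members, with a median of 1.85. Bnip3, a mitophagy receptor induced under low oxygen, stood at 4.48, 4.67 and 4.69 in IL10+ Treg against 0.12, -0.05 and 0.28 in the spleen. Bnip3 rose by 4.50 ± 0.15 (adjusted p = 1.4e-07). The glycolytic kinase gene Pgk1 stood at 6.33, 6.23 and 6.29 against 4.21, 4.32 and 4.11 and rose by 2.07 ± 0.12 (adjusted p = 1.5e-06). Vegfa, an angiogenic growth factor, rose at least 42.2-fold (adjusted p = 1.5e-06). The fall was that of Pdk1, a kinase that keeps pyruvate from mitochondria, at -1.35 (adjusted p = 0.00379). Replicates of Bnip3 and Pgk1 lay close together, and both genes kept their calls with slide in the fit, where 15 members rose and the fall of Pdk1 lost its call. With normexp 8 rose and 2 fell, and Pgk1 lost its call.

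Hypoxia-inducible factors bind DNA at sites built around the letters ACGTG, and members of this list moved together, so the promoters of the list were searched for them. The letters were sought on both strands, where the opposite strand reads CACGT, in the 250 bases before each start in the RefSeq promoter table (build GRCm38.p6). A run reading CACGTG counts on both strands. Of the 23 members with an entry 15 (65.2%) held the letters, against 18.5% of 27025 genes in the table. All 15 were among the 20 matched members that rose, and no window of Pdk1 held them. The list was chosen as genes of glycolysis and hypoxia, and the promoter table was not limited to tested genes. These shares are therefore no test of the factors in these cells. The promoters of 4 genes, each with 2 matches, are shown because their genes rose, Bnip3 and Pgk1 by the values above, the lactate exporter gene Slc16a3 by 4.65 and the hexokinase gene Hk2 by 2.88. The latter pair was chosen after its values were seen. Capitals mark the letters, on whichever strand they lie, and each sequence runs 5′ to 3′ on the gene's own strand.
Bnip3: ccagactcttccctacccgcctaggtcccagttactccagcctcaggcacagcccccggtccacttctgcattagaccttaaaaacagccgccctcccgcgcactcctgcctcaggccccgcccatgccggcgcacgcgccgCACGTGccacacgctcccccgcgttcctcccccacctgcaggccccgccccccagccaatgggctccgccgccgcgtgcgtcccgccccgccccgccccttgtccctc
Pgk1: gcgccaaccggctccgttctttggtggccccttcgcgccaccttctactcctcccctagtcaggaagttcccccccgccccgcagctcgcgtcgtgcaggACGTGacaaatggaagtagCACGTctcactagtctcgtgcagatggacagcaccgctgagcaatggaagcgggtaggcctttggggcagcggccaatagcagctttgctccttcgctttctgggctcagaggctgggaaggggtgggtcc
Slc16a3: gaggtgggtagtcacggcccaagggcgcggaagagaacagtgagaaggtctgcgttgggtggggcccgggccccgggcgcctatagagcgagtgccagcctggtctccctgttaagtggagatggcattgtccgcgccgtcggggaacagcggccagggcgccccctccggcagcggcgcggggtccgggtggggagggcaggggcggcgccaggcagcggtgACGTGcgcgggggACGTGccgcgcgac
Hk2: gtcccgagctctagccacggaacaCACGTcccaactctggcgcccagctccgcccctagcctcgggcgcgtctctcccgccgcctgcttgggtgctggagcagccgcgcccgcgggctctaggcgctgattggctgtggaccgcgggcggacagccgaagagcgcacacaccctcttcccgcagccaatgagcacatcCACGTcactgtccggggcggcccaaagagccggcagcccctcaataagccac
They lie at chr7:138909507-138909756 on the minus strand (Bnip3), chrX:106186850-106187099 on the plus strand (Pgk1), chr11:120948817-120949066 on the plus strand (Slc16a3) and chr6:82774455-82774704 on the minus strand (Hk2). In Bnip3 the matches overlap in a single run. A match describes the letters of the window and no binding was measured.

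Lipid genes were higher in part. Of 22 cholesterol synthesis genes 15 rose and 2 fell, with a median of 1.14. Insig1, a sensor of sterols, rose by 1.41 and Hsd17b7, an enzyme of the pathway, by 1.28, while the reductase gene Tm7sf2 fell by 1.54 and the regulator Srebf2 by 0.45, with 2 other Srebf2 probes higher. Of 18 genes of fatty acid uptake and synthesis 9 rose and none fell (50% called, against 51.6% of all features). Me1, which supplies NADPH, rose at least 25.2-fold, Dgat1, which makes triglyceride, stood at 4.73, 5.56 and 5.04 against 2.44, 2.15 and 2.41 and rose by 2.78 ± 0.21 (adjusted p = 6.6e-06), and the lipid droplet gene Plin2 rose by 2.46. With normexp 3 cholesterol genes rose and 3 fell, and with slide in the fit 6 rose and 1 fell, the calls of Insig1 and Srebf2 being lost.

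Cytosolic ribosomal protein genes fell as a group by a small amount. Of 38 members 31 fell and none rose, with a median of -0.85 and a range of -1.31 to -0.11. Rps27 stood at 8.52, 8.74 and 8.78 in IL10+ Treg against 9.92, 10.29 and 9.76 and fell by 1.31 ± 0.17 (adjusted p = 1.5e-04). Rps24 and Rps7 fell by 1.29 and 1.16. With slide in the fit 1 member fell, and with normexp all 38 fell. Oxidative phosphorylation genes showed 4 rises and 8 falls among 35 with a median of -0.05, which is 34.3% called against 51.6% of all features. Among them Sdha, a subunit of complex II, fell by 0.77 and Ndufb3 by 0.65, while Ndufv1 rose by 0.74 and cytochrome c (Cycs) by 0.52, and with slide in the fit none passed.

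Metallothioneins, small proteins that bind zinc and copper, stood out in the stress list, where 10 of 20 rose and 1 fell. The share of that list called (55%) was near the 51.6% of all features. Mt2 stood at 8.42, 7.29 and 7.74 in IL10+ Treg against 1.40, 0.77 and 1.11 in the spleen and rose by 6.72 ± 0.40 (adjusted p = 1.8e-06). Mt1 rose by 5.89 ± 0.41 (adjusted p = 4.7e-06), Mt3 rose at least 28.8-fold, and catalase (Cat) fell by 0.72. Mt1 and Mt2 kept their calls with slide in the fit and Mt3 did not, and with normexp 5 members of the list rose, 4 fell and the median was -0.39. Of 20 heat shock and chaperone genes 9 rose and none fell (45% called), with a median of 0.54. With normexp, however, none rose, 1 fell and the median was -0.64. Canx, Hsp90b1 and Hspa5, chaperones of the endoplasmic reticulum, rose by 1.12, 0.89 and 0.81, and with normexp each was on the other side of 0. Hsp90b1, Hspa5 and Cat lost their calls with slide in the fit.

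Immediate early genes, which stimulated cells switch on first, gave 8 rises and 4 falls among 21 (57.1% called, near the 51.6% of all features). Ier3 rose at least 73.4-fold, and Atf3, a stress factor, rose by 5.01 ± 0.47 (adjusted p = 2.5e-05). Egr3, a target of T cell receptor signals, fell by 2.71 and Btg2, which restrains division, by 1.71. Egr3 was well above background on 1 of the 3 IL10+ arrays and its difference was 0.27 with normexp, under which 4 members of the list rose and 4 fell. Of 16 NF-kB genes 4 rose and 2 fell (37.5% called). Bcl2l1, which encodes the survival protein BCL-XL, rose by 2.88 and Nfkb2 rose as well (adjusted p = 5.5e-04), whereas Cflar fell by 1.04, with 3 other probes of that gene higher, and Nfkb1 fell by 0.61 (adjusted p = 0.0465). Without IL10+ replicate 1 the NF-kB list had 7 rises and 1 fall, and its median was on the other side of 0 with slide in the fit and with normexp. Egr3, Bcl2l1, Nfkb2 and Nfkb1 lost their calls with slide in the fit.

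Of 14 survival genes of the BCL2 family 4 rose and 4 fell, and the share called (57.1%) was near the 51.6% of all features. Their median was -0.34, but 0.12 with normexp. Bcl2 stood at -1.91, -1.73 and -0.78 against 2.05, 2.19 and 2.11, and Mcl1 fell by 1.10 ± 0.14 (adjusted p = 1.4e-04). Bcl2l1 rose, as given above, and Pmaip1, which encodes the death factor NOXA, rose by 1.91. The rises of Bcl2l1 and Pmaip1 lost their calls with slide in the fit, and the falls of Bcl2 and Mcl1 did not.

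Genes of helper T cell programmes gave 3 rises and 6 falls among 17 tested members (52.9% called, near the 51.6% of all features). Tnfsf8, which encodes CD30 ligand, was at least 6.91-fold lower, Lta, lymphotoxin alpha, fell by 2.50 and Stat4, a factor of interleukin-12 signalling, by 1.59. Csf2 rose by 2.62 (adjusted p = 0.0127). Il17a rose by 2.36 (adjusted p = 0.0326), but its groups overlapped, 2 of 3 IL10+ arrays read it well above background, and it lost its call without IL10+ replicate 2 or 3 and without spleen replicate 1 or 3. Cytokine receptors and their STAT factors gave 3 rises and 4 falls among 22 (31.8% called). Stat5b, which carries interleukin-2 signals, fell by 1.69 ± 0.20 (adjusted p = 1.1e-04), and Ifngr2 fell by 0.97 while Ifngr1, the other chain of the interferon-gamma receptor, rose by 1.21. Il12rb1, a chain of the interleukin-12 receptor, also rose (adjusted p = 0.0147). With normexp Ifngr1 and Il12rb1 were on the other side of 0. Tnfsf8, Lta, Csf2, Il17a, Ifngr1, Ifngr2 and Il12rb1 lost their calls with slide in the fit.

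Interferon-stimulated genes were called less widely than the array as a whole, with 5 rises and 2 falls among 27 (25.9% against 51.6%) and a median of 0.09. Isg20 rose by 1.54 and Oasl2 by 1.22, while Irf9 fell by 1.38 and Ifih1 by 0.57. Isg20, Irf9 and Ifih1 lost their calls with slide in the fit. The median changed sign with slide or scan day in the fit, with normexp and without IL10+ replicate 2 or 3. The slide and scan day fits both rest on IL10+ replicate 1.

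The first scan day held IL10+ replicate 1 and all 3 spleen arrays. Within it the median differences were 2.05 for mitosis, 1.44 for DNA replication, 1.53 for glycolysis and hypoxia, 2.17 for effector surface proteins, -2.54 for resting T cells and -0.75 for ribosomal proteins. The NF-kB, interferon-stimulated and oxidative phosphorylation lists stood at -0.12, -0.54 and 0.09 there, on the other side of 0 from the values over 3 replicates. These values rest on 1 IL10+ array and carry no test. The fit with scan day as a block gives the same differences from spleen, so it is no separate check.

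**Figure D4:**
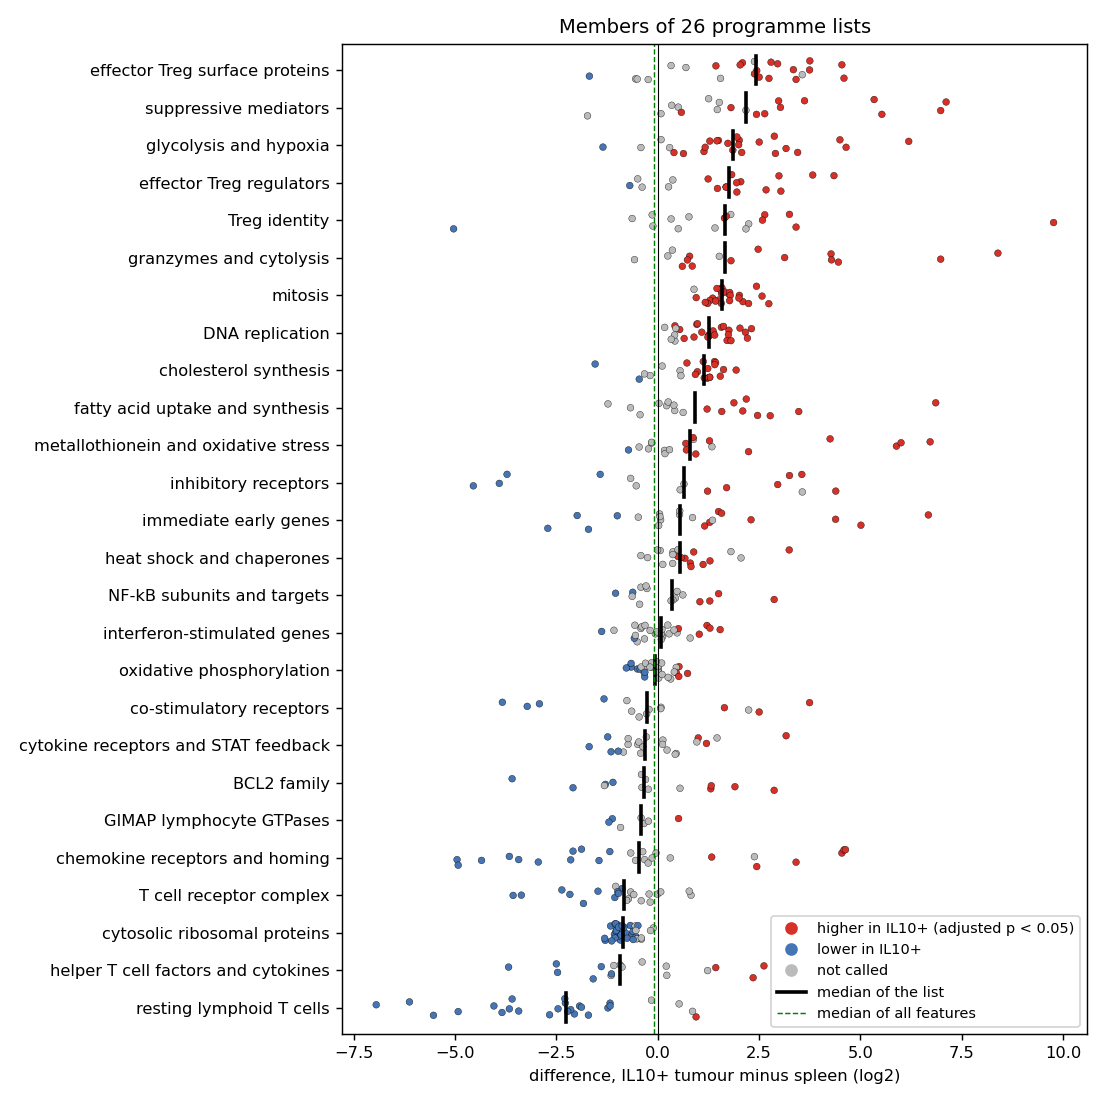
Difference between IL10+ tumour and spleen Treg (log2) for each tested member of the programme lists, 1 point per gene, with called members coloured and the median of a list marked. All mitosis and DNA replication members lay to the right of 0, all ribosomal members and most resting T cell members to the left, and receptor lists spread over both sides.

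The difference between IL10+ and spleen Treg was next set beside the other tumour groups, which share the spleen arrays, so that these differences are not independent of each other. Testing the tumour groups against each other asks whether IL10+ Treg depart from spleen by more or less than the other tumour Treg do. Of 15534 features 30 (0.193%) were called between IL10+ and total tumour Treg, 12 higher (0.0772%) and 18 lower (0.116%), with 2576 (16.6%) at an unadjusted p under 0.05. Between IL10+ and IL10- Treg 8 (0.0515%) were called, 1 higher (0.00644%) and 7 lower (0.0451%), with 728 (4.69%) at an unadjusted p under 0.05. IL10+ arrays lay apart from total tumour arrays for 22.7% of features and from IL10- arrays for 7.47%. Both counts depended on the processing and on single arrays. Without IL10+ replicate 1 the counts against total tumour Treg were 159 higher and 316 lower.

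Several receptor genes that fell against spleen were also lower in IL10+ Treg than in another tumour group. Btla stood at -3.13 on average in IL10+ Treg, at -1.12, -1.34 and -1.38 in IL10- Treg and at -1.87, -1.86 and -1.64 in total tumour Treg. It was lower by 1.86 than in IL10- Treg (adjusted p = 0.00695) and by 1.34 than in total tumour Treg (adjusted p = 0.0228). Tnfrsf25 stood at 2.37, 2.92 and 2.39 in IL10- Treg and at 2.40, 1.94 and 2.40 in total tumour Treg, above every IL10+ array. Its difference was -2.04 against IL10- (adjusted p = 0.0107) and -1.73 against total tumour Treg (adjusted p = 0.0228).

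Il18r1 showed another pattern, since IL10- Treg (2.10, 2.51 and 2.46) and total tumour Treg (2.10, 1.89 and 2.31) overlapped the spleen arrays and IL10+ Treg lay below all of them. It was lower by 1.84 than in IL10- Treg (adjusted p = 0.014) and by 1.58 than in total tumour Treg (adjusted p = 0.0257). Trat1 was lower by 1.84 than in total tumour Treg (adjusted p = 0.0373) and by 1.31 than in IL10- Treg, which did not pass (adjusted p = 0.279).

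Genes outside the lists also differed from IL10- Treg. Csta2, a cysteine protease inhibitor (probe at chr16:36176605-36176664, mm8), stood at 0.00, 0.08 and 0.33 in IL10+ Treg, at -2.05, -2.45 and -2.28 in IL10- Treg and between -3.12 and -2.68 in the spleen, and was higher than in IL10- Treg by 2.40 ± 0.28 (adjusted p = 0.0191). The hair keratin genes Krt86 and Krt87 were higher in IL10+ Treg than in the spleen, yet lower than in IL10- Treg by 2.41 (adjusted p = 0.00984) and 2.42 (adjusted p = 0.014). Against spleen, slide in the fit left Krt86 at 0.59 and Krt87 at 0.64, and both calls were lost. They are close copies and their probes may share signal.

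Some genes were called against total tumour Treg with a smaller difference from IL10- Treg. Besides Foxp3 and Gdpd3, the clone 1700121C10Rik was lower than in total tumour Treg by 3.68 (adjusted p = 0.0263). It differed from IL10- Treg by -0.28, which did not pass, and its call against spleen was lost with slide in the fit. Its probe was well above background on 1 of 3 IL10+ and 2 of 3 IL10- arrays, so these sizes rest in part on dim values. Palm, a membrane protein, was higher than in total tumour Treg by 2.10 (adjusted p = 0.0481) and Ttyh2, a chloride channel, by 1.81 (adjusted p = 0.0228), with differences of 0.12 and 0.53 from IL10- Treg that did not pass. IL10- and total tumour Treg were not tested against each other. Strain and reporter gate differ between IL10+ and total tumour Treg and cannot be told apart.

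**Figure D5:**
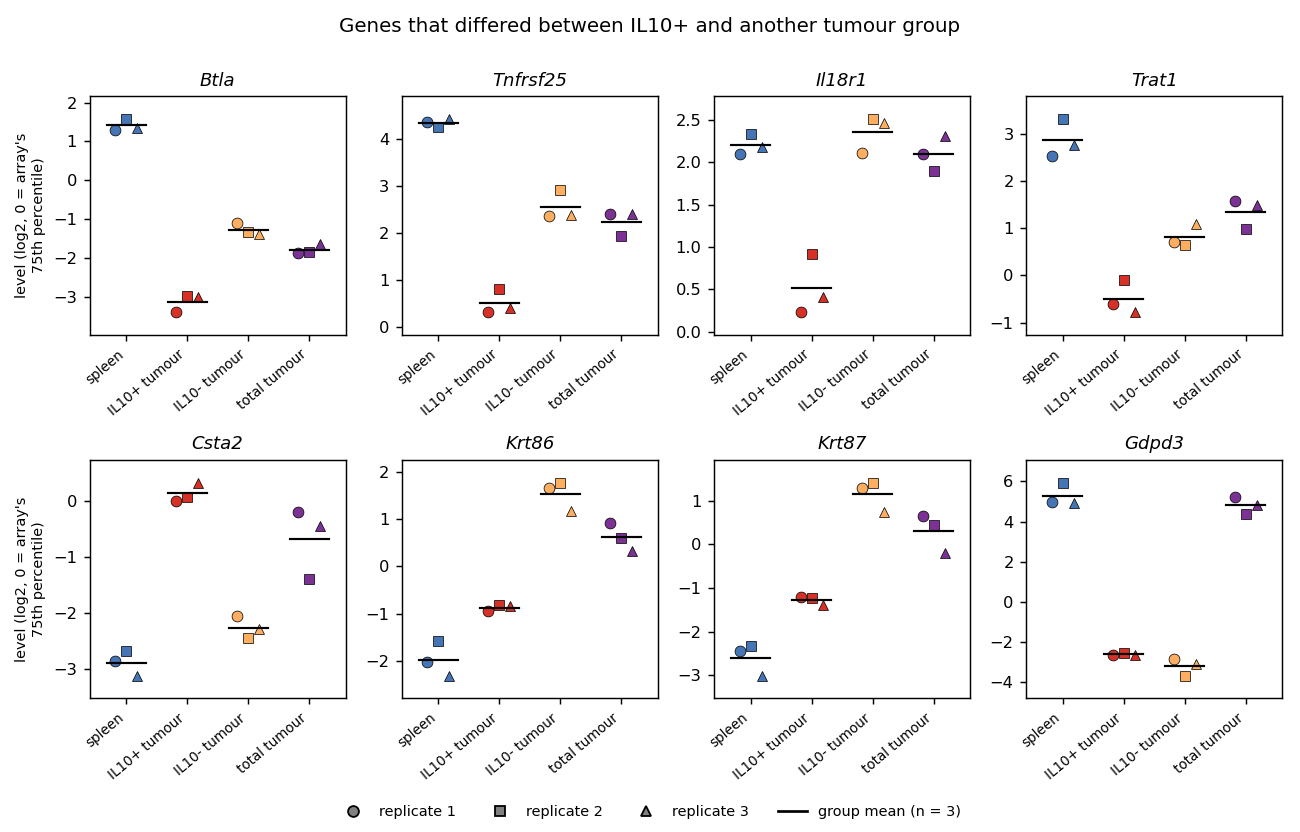
Levels (log2, 0 = 75th percentile of the array) on all 12 arrays of 8 genes called between IL10+ and another tumour group, with symbols for the replicates and a line at the mean of 3. Btla, Tnfrsf25 and Trat1 stepped down from spleen to the other tumour groups to IL10+ Treg, Il18r1 was low in IL10+ Treg alone among these groups, and Gdpd3 was low in the VERT-X groups and high in the FoxP3-EGFP groups.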

How the data were processed

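RNA of sorted Treg was measured on 12 one-colour arrays, 3 for each of 4 groups given by the titles. The deposited scanner files hold the processed intensity of each spot from Agilent Feature Extraction 9.5.3.1, background-subtracted and corrected for trends within an array, per the file headers, on probes annotated to mm8. The same files hold the mean intensity and the local background intensity, per the file headers, used in the normexp alternative (offset 50). The deposited series table tracks log10 of the processed intensity array by array, so its values were taken as log10. How it was normalized is not given in the sources, and it entered as an alternative. The labels name biotin-labelled cRNA and the headers a scan in a single channel, which bears on no value given.

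Control spots were left out and spots of 1 probe averaged. Gene names came from RefSeq's GRCm38.p6 gene table: 23483 by accession, 6678 by symbol and 2887 by synonym, while 1739 kept their own name and 6387 stayed unnamed. Of several probes, a gene took the brightest by its mean over 12 arrays, and features well above background on at least 3 arrays were tested. Probe positions within exons were not analysed here. Levels, log2 of the processed intensity minus the array's 75th percentile, were fitted for all 12 arrays and 4 groups by lmFit and eBayes of limma 3.58.1, with two-sided tests (R 4.3.3, statmod 1.5.0, version 1.17.8 of data.table). Each contrast had its own Benjamini-Hochberg adjustment, and calls were made under 0.05. The steps were tested on simulated data. Figures were drawn with matplotlib 3.10.9 and tables joined with pandas 2.3.3 in Python 3.11.15.

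The comparison, the lists and the rule for named genes were chosen with earlier results of these data known. Named were the genes of reporters and gates, the 12 features that rose most and the 12 that fell most, among called features with a symbol whose groups do not overlap (predicted genes, clones, receptor segments and cell type markers left out), the 3 members of each programme list with the smallest p and up to 2 called against most of the list, the 3 members of each cell type list with the highest mean, and up to 5 genes in each direction that were called both against spleen and between tumour groups. Of the genes this rule names, 2 are not reported. Replicate numbers were not taken to pair the samples, since not every pair passed 0.1: deviations from the group means of same-numbered arrays correlated at -0.017, -0.119 and -0.091 for IL10+ with spleen, at 0.413, 0.43 and -0.237 with IL10- and at -0.086, -0.192 and 0.071 with total tumour Treg. Alternatives covered background correction, normalization, the detection filter, the arrays fitted, the choice of probe, replicate, slide and scan day blocks, and leaving out each replicate. The random slide block and the scan day were chosen after seeing the data.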

Additional observations from a re-analysis of the deposited data

Results flagged for a closer look

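The difference from spleen in IL10+ Treg was tested against that in the other tumour groups, which share the spleen arrays, and genes named above that passed the test are listed with the difference of the 2 differences (log2, n = 3 arrays a group, limma adjusted p). Against total tumour Treg, Foxp3 differed by 10.12 (adjusted p = 2e-05) and Gdpd3 by -7.42 (adjusted p = 1e-05), and for both genes strain and reporter gate cannot be told apart. Also against total tumour Treg, Col6a2 differed by 2.09, Palm by 2.10, Ttyh2 by 1.81 and Onecut2 by 1.75, while 1700121C10Rik differed by -3.68 and Tafa3, a secreted protein gene, by -2.03. Tafa3 was 0.24 higher than in the spleen with normexp. The probes of Gdpd3, Tafa3 and Onecut2 were well above background on 2 of 3 IL10+ arrays and that of 1700121C10Rik on 1. On the total tumour arrays Onecut2 was well above background on 1 of 3 and Ttyh2 on 2.

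Among T cell receptors and adaptors, Btla differed by -1.34 from total tumour and by -1.86 from IL10- Treg, and Tnfrsf25 by -1.73 and -2.04. Il18r1 differed by -1.58 and -1.84, and Trat1 by -1.84 from total tumour Treg. Csta2 differed from IL10- Treg by 2.40 and Krt87 by -2.42, and Krt86 differed by -1.49 from total tumour Treg and by -2.41 from IL10- Treg. In each of these contrasts all 3 IL10+ arrays lay on 1 side of the 3 arrays compared. Groups of 3 were not tested for single outlying arrays.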

How the results depend on the processing

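The counts against spleen were 3616 higher and 4395 lower. Slide as a fixed block gave 1202 and 1304, and normexp gave 1916 higher. Fitting only the arrays of the 2 groups gave 2895 and 3363, and 2267 and 2083 with a replicate block in that fit. The replicate block over all arrays, whose numbers were not taken as pairs, gave 7917 calls and kept 95.9% of the 8011. Leaving out each replicate gave 3130 to 3731 higher and 3750 to 4564 lower. With normexp the median difference over all features was 0.001 and the higher share of the calls was 36.3%, against 45.1%.

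Against total tumour Treg the counts of 12 higher and 18 lower became 0 and 1 with normexp, 6 and 10 with quantile normalization, 7 and 10 with the authors' value table, 1 and 1 with no detection filter, 1 and 1 with only the arrays of the 2 groups, 1 and 1 with the replicate block, 0 and 0 with that block on only the 2 groups, 1 and 2 with the slide block and 1 and 8 with scan day as a block. A filter of 6 arrays gave 34 lower. Leaving out each replicate gave 1 to 159 higher and 1 to 316 lower. Against IL10- Treg the counts of 1 higher and 7 lower became 0 and 3 with normexp, 2 higher with quantile normalization and with the value table, 0 and 2 with no filter, 0 and 0 with only the 2 groups, 0 and 3 with the replicate block, 0 and 0 with that block on only the 2 groups and 0 and 0 with the slide block. Scan day as a block gave 1 lower. Leaving out each replicate gave 0 to 2 higher and 0 to 18 lower, the last without spleen replicate 2.

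Of the named genes under all alternatives, 3495 values kept direction and side of the threshold, 248 lost the call, 9 gained it and 33 were on the other side of 0. With normexp these were Cd3e (-0.45), Cd4 (-0.33), Ly6c1 (-0.33), Gimap5 (-0.79), Egr3 (0.27), Ifngr1 (-0.14), Il12rb1 (-0.17), Ifih1 (0.10), Ndufv1 (-0.59), Cycs (-0.69), Canx (-0.16), Hsp90b1 (-0.37), Hspa5 (-0.70), Xbp1 (-0.82), Ccl5 (-0.024), Epcam (-0.07) and Tafa3 (0.24). With the mean of a gene's probes they were Cd3e (-0.40), Ly6c1 (-0.33), Gimap5 (-0.60), Cflar (0.12), Srebf2 (0.78), Cycs (-0.02) and Acta2 (0.45). With slide or scan day as a block Cd3e was at -1.28 and -1.57, Cd4 at -0.90 and -1.12 and Epcam at -0.13 and -0.54. Leaving out each replicate gave -0.042 (without IL10+ replicate 2) to 2.02 for Cd3e, -0.95 to 0.049 (without IL10+ replicate 1) for Cd74 and -0.42 (without spleen replicate 2) to 0.77 for Epcam. The cause was not tested.

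List medians kept their value within the spread in 763 of the alternatives and moved in 101. Of 147 called named genes, 66 lost the call with slide as a fixed block, which leaves few degrees of freedom. The difference from spleen in that fit, and in the fit with scan day as a block, rested on IL10+ replicate 1 alone. The number of arrays limits the precision, and IL10+ replicate 3 had the lowest signal.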
